A study of Homo sapiens with 6 samples.

Results

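Genes of the actin cytoskeleton, together with serum response factor (SRF) and targets of that factor, were followed in RT-112 cells after silencing of PPP2R2A. The set held 35 genes chosen by name: actins, regulators of filament assembly, tropomyosins, subunits of non-muscle myosin II, calponins and caldesmon, focal adhesion proteins, membrane linkers and SRF itself. A probe set carrying that gene's symbol alone was found for 30 of them, and 29 passed the filter on dim probe sets, out of 19775 genes with such a probe set and 12735 genes tested. ACTG1, ACTR2, TPM3, FLNA and WDR1 had none with a single symbol. MSN, which encodes the membrane linker moesin, read 14.5 to 71.6 and was above the array median on 1 array, too few for the filter.

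RT-112 is a human bladder cancer line, and PPP2R2A encodes a regulatory B subunit of protein phosphatase 2A. Cells received 50 nM of a scramble siRNA, of siPPP2R2A_1 (siRNA 1) or of siPPP2R2A_2 (siRNA 2) with Lipofectamine RNAiMAX while being plated at 50% confluence. A second transfection with the same siRNA followed 24 h later and RNA was taken 24 h after that, so the controls also went through both transfections. Each group had 2 arrays, A and B, which the submitters call technical duplicates, so every p-value below measures only the spread between such duplicates of 1 cell line.

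Actin monomers are built into filaments by nucleators such as the Arp2/3 complex, and the filaments are stabilised by tropomyosins, pulled by myosin II and anchored at adhesions through vinculin, talin and alpha-actinin. Free actin monomers bind the cofactors MRTFA and MRTFB and hold them away from SRF. When monomers are used up by assembly, the cofactors enter the nucleus and drive SRF targets, many of which encode actin and its binding proteins, through a DNA element called the CArG box.

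The CArG box was looked for in the RefSeq promoter windows of GRCh38.p14 (250 bases before to 50 bases after a gene's start), since it is the element through which SRF acts on genes of this set. The motif searched was CC, then 6 bases that are each A or T, then GG, which reads the same way on both strands. Windows were present for 32 of the 35 genes, and ACTB, MYL9 and TAGLN had none in the table. A box was present in 6 of those 32 genes (18.8%), namely ACTG1, ACTN1, CNN2, FLNA, SRF and TPM4, against 438 of 27305 genes (1.60%) and 454 of 35116 windows (1.29%) over the whole table. A match is a description of letters and not a measured binding site. The stretches below show the box, in capitals, for members whose signals are described, with ACTG2 added because its signals are given as well. The first lies at chr6:43171214-43171268 on the plus strand for SRF, in 1 of its 2 promoter windows. It holds 2 boxes starting 30 and 10 bases before the start site. For ACTN1 the stretch lies at chr14:68977703-68977762 on the minus strand, for ACTG1 at chr17:81512859-81512918 on the minus strand, for CNN2 at chr19:1026494-1026553 on the plus strand and for TPM4 at chr19:16067340-16067399 on the plus strand. That of ACTG2, with 2 boxes, lies at chr2:73892873-73892969 on the plus strand.
SRF: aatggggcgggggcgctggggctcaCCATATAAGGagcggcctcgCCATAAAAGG
ACTN1: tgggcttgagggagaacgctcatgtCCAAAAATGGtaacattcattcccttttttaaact
ACTG1: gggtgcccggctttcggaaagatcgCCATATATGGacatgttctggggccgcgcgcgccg
CNN2: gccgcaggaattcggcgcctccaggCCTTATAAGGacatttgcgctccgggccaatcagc
TPM4: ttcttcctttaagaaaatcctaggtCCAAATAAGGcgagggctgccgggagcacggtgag
ACTG2: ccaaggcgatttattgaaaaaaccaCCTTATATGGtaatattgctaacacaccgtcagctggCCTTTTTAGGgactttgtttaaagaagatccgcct

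The target came first. PPP2R2A read 1381 and 1589 on the scramble arrays, 336 and 397 on those of siRNA 1, and 510.0 and 533 on those of siRNA 2, so every knockdown array lay below both scramble arrays. Its log2 change was -2.02 with siRNA 1 (limma adjusted p = 0.0403) and -1.51 with siRNA 2 (adjusted p = 0.0461), and leaving out any 1 array raised these to between 0.113 and 0.190. Of the epithelial markers fixed for RT-112, 8 of 8 were above the array median on every array, and their summed signal ran from 131688 to 136183 with scramble, 131152 to 136741 with siRNA 1 and 111758 to 119449 with siRNA 2. The epithelial sum was thus lower on both siRNA 2 arrays than on the other 4. Fibroblast and smooth muscle markers, which matter here because smooth muscle cells carry much CALD1, TAGLN and MYL9, summed to 6118 to 6424, 6744 to 7664 and 5884 to 5980.2 in the same order. Most of each sum was LUM, whose group means were 4845, 5935 and 4533. DES (means 132, 81.8, 105) and the dim MYH11 (means 62.9, 46.1, 60.9) were instead lowest with siRNA 1. The sums thus mainly follow LUM and do not show whether smooth muscle content changed. Of the 8 fibroblast and smooth muscle markers 3 (COL1A1, DES and LUM) were above the median on every array and 3 (COL1A2, COL3A1 and PDGFRB) on none, while MYH11, the smooth muscle myosin, was above it on 1. Of 6 haematopoietic and endothelial markers with a probe set 2 were above it on every array and 2 on none, with sums of 425 to 526, 433 to 509 and 342 to 358. The part of these shifts in the results below was not tested.

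Most of the actin genes stood close to their scramble level, as did most genes tested. With each siRNA 18 of the 29 members lay within 0.2 of 0 on the log2 scale, as did 7338 and 6735 of the 12735 genes. A gene was called at a limma adjusted p under 0.05, adjusted over all genes tested, and a change of at least 1.5-fold. With siRNA 1, 0 of 29 members were called, where 0.393% of all genes were. With siRNA 2 CALD1 was called higher, 1 of 29 against 0.597% of all genes. CALD1 was also the 1 member called between the siRNAs, where 0.212% of all genes were called. The arrays read RNA from all cells of a culture together, so fewer cells with a transcript and less of it per cell cannot be told apart.

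At an unadjusted p under 0.05, 5 members were lower with siRNA 1 (ACTN1, CALD1, SRF, TAGLN and TLN1, 17.2% against 6.65% of all genes) and 0 were higher (9.55% of all genes). With siRNA 2, 2 were higher (CALD1 and CAPZA1, 6.90% against 12.0%) and 2 were lower (TAGLN2 and VCL, 6.90% against 8.76%). CALD1 is named for both siRNAs, lower with siRNA 1 and higher with siRNA 2. Between the siRNAs 7 members were lower with siRNA 1 (ACTN1, CALD1, MYL12A, MYL9, SRF, TAGLN and TPM2, 24.1% against 9.53%) and VCL alone was higher (3.45% against 9.16%). TPM2 passed the filter only through the siRNA 2 arrays, so it had to stand higher there and adds nothing to that count. Below 0 stood 23 of 29 members with siRNA 1 (79.3%, against 47.8% of all genes) and 18 with siRNA 2 (62.1%, against 47.6%). Their median log2 change was -0.11 with siRNA 1 and -0.054 with siRNA 2, beside 0.011 and 0.016 over all genes tested. Without scramble A the siRNA 2 median was -0.0038, beside 0.0034 over all genes. These counts describe the genes that passed the filter, and both comparisons share the scramble arrays.

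**Figure D1:**
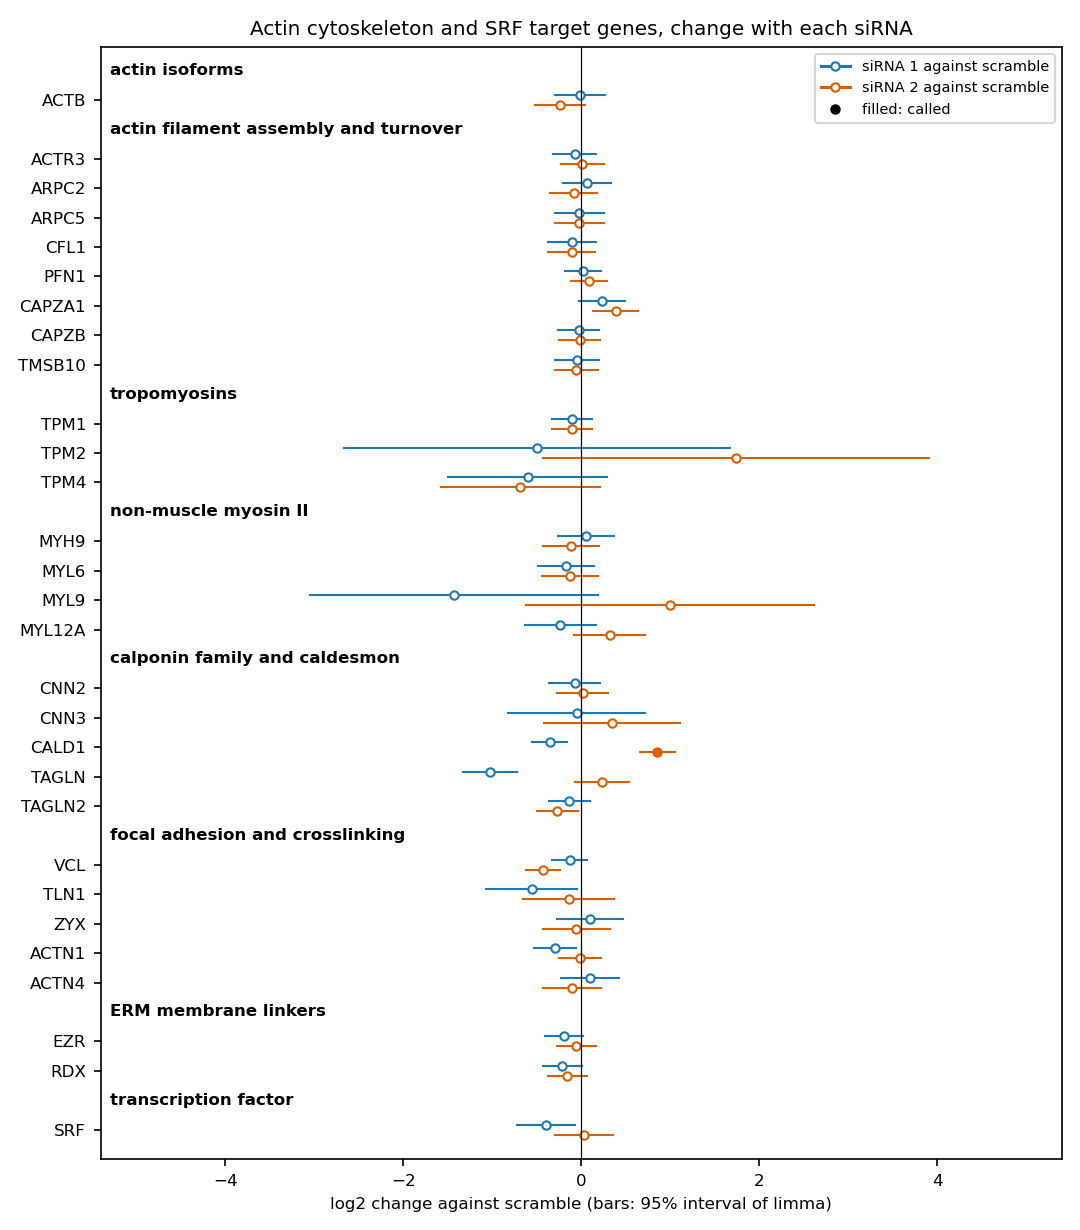
The log2 change of each of the 29 tested members against scramble (x axis) is plotted by role for siRNA 1 (blue) and siRNA 2 (orange), with bars for limma's 95% interval and a filled point where the gene was called. CALD1 with siRNA 2 is the only filled point, and the dim TPM2 and MYL9 have the widest bars.

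The actin isoforms are read together on this array. ACTB encodes beta-actin and ACTG1 gamma-actin, the pair of cytoplasmic actins, and 9 probe sets carry both symbols, so these genes could not be separated there. ACTB's own brightest probe set read 34364 and 32372 on the scramble arrays, 31176 and 34884 on those of siRNA 1, and 26783 and 29881 on those of siRNA 2. The siRNA 1 arrays overlapped scramble and both siRNA 2 arrays lay below it. The log2 change was -0.016 with siRNA 1 (adjusted p = 0.957) and -0.24 with siRNA 2 (adjusted p = 0.303, 95% interval -0.52 to 0.043). Over ACTB's 3 probe sets the siRNA 2 change ran from -0.29 to -0.23, and over the 9 shared with ACTG1 from -0.21 to -0.10.

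ACTB also serves as a control of RNA quality, through separate probe sets at the 5' end, the middle and the 3' end of its transcript. The 3' to 5' ratio of signals was 5.43 and 5.94 on the scramble arrays, 6.52 and 7.82 on those of siRNA 1, and 7.47 and 12.4 on those of siRNA 2. The siRNA 2 and siRNA 1 arrays were all above the scramble arrays. The 5' signal itself was 6084 and 5109 on the scramble arrays, 4410.4 and 3755 on those of siRNA 1, and 3356 and 2372 on those of siRNA 2. For GAPDH the same ratio stayed between 0.943 and 1.02 on the 6 arrays. RNA quality as ACTB reads it moved with the groups, and its part in the changes of the other members was not tested.

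**Figure D2:**
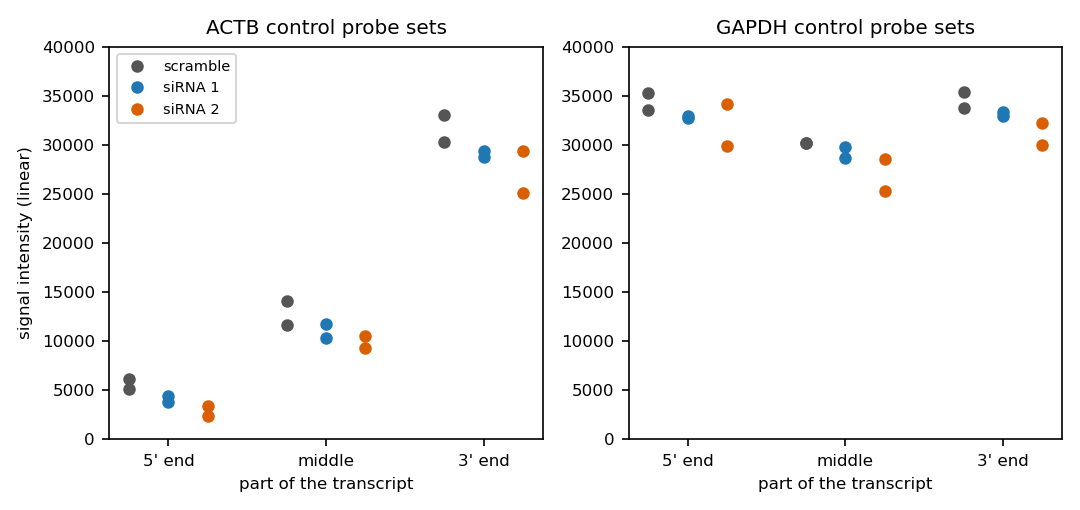
Linear signal (y axis) of the control probe sets at the 5' end, middle and 3' end of ACTB (left) and GAPDH (right), 1 point per array, coloured by group. The ACTB 5' signal falls from 6084 on scramble A to 2372 on siRNA 2 B, while the 3' to 5' ratio of GAPDH stays between 0.943 and 1.02.

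Regulators of filament assembly and turnover stayed near their scramble level. Of the 8 tested, 7 lay within 0.2 of 0 with each siRNA: ACTR3, ARPC2 and ARPC5 of the branching Arp2/3 complex, the severing protein cofilin (CFL1), the monomer-binding proteins profilin (PFN1) and thymosin beta 10 (TMSB10), and the capping subunit CAPZB. PFN1 read 11844 and 11877 on the scramble arrays, 11745 and 12316 on those of siRNA 1, and 12525 and 12656 on those of siRNA 2, with log2 changes of 0.020 and 0.086. These values overlap with siRNA 1 and sit slightly higher with siRNA 2, and neither change was called (adjusted p = 0.924 and 0.580).

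The exception was CAPZA1, the alpha subunit of the protein that caps filament ends. Its signals were 18559 and 17169 on the scramble arrays, 22009 and 19936 on those of siRNA 1, and 24093 and 22525 on those of siRNA 2. All 4 knockdown arrays lay above both scramble arrays, which CAPZA1 alone did among the 29 members and 14.7% of all genes did. Neither change was called, at log2 0.23 with siRNA 1 (adjusted p = 0.349) and 0.38 with siRNA 2 (adjusted p = 0.136, 95% interval 0.13 to 0.64).

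On the opposite side, 5 members had all 4 knockdown arrays below both scramble arrays (CFL1, RDX, TAGLN2, TPM1 and VCL, 17.2% against 10.6% of all genes). None of them was called. Their log2 changes lay between -0.21 and -0.10 with siRNA 1 and between -0.43 and -0.10 with siRNA 2. CFL1 met the rule narrowly, since siRNA 1 A read 27722 and scramble A 27724. Its other bright probe set was higher on both siRNA 2 arrays than on scramble (log2 change 0.12). On TPM1's next brightest probe set the siRNA 1 arrays overlapped scramble. The 2 bright probe sets of TAGLN2 were lower with each siRNA.

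Tropomyosins lie along the filament and set which other proteins reach it. TPM1 stood at -0.11 and -0.10 with siRNA 1 and siRNA 2. TPM4, with the box shown above in 1 of its 3 promoter windows, read 3925 and 2084 on the scramble arrays, 1609 and 2201 on those of siRNA 1, and 1757 and 1802 on those of siRNA 2. Scramble A stood well above the other 5 arrays. The log2 change was -0.60 with siRNA 1 (adjusted p = 0.463) and -0.68 with siRNA 2 (adjusted p = 0.341), and without scramble A it shrank to -0.15 and -0.23. TPM4's 3 bright probe sets nevertheless all pointed down, by -0.60 to -0.52 with siRNA 1 and by -0.68 to -0.21 with siRNA 2.

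TPM2, the tropomyosin of smooth muscle, was dim. It read 9.70 and 55.8 on the scramble arrays, 12.3 and 22.0 on those of siRNA 1, and 77.1 and 85.5 on those of siRNA 2, and was above the array median only on the siRNA 2 arrays. Its log2 changes of -0.49 and 1.74 had 95% intervals of -2.66 to 1.67 and -0.43 to 3.91, and neither was called (adjusted p = 0.813 and 0.325).

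Non-muscle myosin II is built from a heavy chain (MYH9 among the members), an essential light chain (MYL6) and regulatory light chains (MYL9 and MYL12A), whose phosphorylation turns contraction on. MYH9 stood at 0.051 with siRNA 1 and -0.12 with siRNA 2, and MYL6 at -0.18 and -0.12. MYH10, another heavy chain, is among the other SRF targets below and was singled out after its values were seen. It read 5522 and 6115 on the scramble arrays, 5930 and 5877 on those of siRNA 1, and 3362 and 3595 on those of siRNA 2. Its log2 changes of 0.023 and -0.74 were not called (limma adjusted p = 0.930 and 0.0556). On the probe sets used, the regulatory light chains differed more between the siRNAs than MYH9 and MYL6 did. This did not hold for a much dimmer MYL6 probe set that was also above the median on every array. There MYL6 stood at -0.33 and 0.46, a difference of -0.79, with siRNA 1 arrays below scramble and siRNA 2 arrays above it. MYL12A read 6238 and 4718 on the scramble arrays, 4499.6 and 4718 on those of siRNA 1, and 6903 and 6641 on those of siRNA 2. Both siRNA 2 arrays lay above all others, although scramble A was nearly as high. The difference between the siRNAs was -0.56 (adjusted p = 0.176, 95% interval -0.95 to -0.16). MYL12A's 4 bright probe sets were all lower with siRNA 1 (-0.48 to -0.049) but ran from -0.63 to 0.32 with siRNA 2. Between the siRNAs they ran from -0.56 to 0.15. A probe set that carries the symbols of both MYL12A and its neighbour MYL12B read -0.094 and 0.10.

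MYL9, a classical SRF target of contractile cells, was dim but above the array median on 5 arrays. Its signals were 101 and 127 on the scramble arrays, 79.7 and 21.4 on those of siRNA 1, and 238 and 217 on those of siRNA 2, so the siRNA 1 arrays lay below scramble and the siRNA 2 arrays above it. The log2 changes were -1.43 (adjusted p = 0.353) and 1.00 (adjusted p = 0.435). The difference of -2.42 between the siRNAs was not called (adjusted p = 0.162, 95% interval -4.04 to -0.81), and without siRNA 1 B, the array at 21.4, it was -1.50 (adjusted p = 0.376, in a range of 0.0236 to 0.433 over the other settings).

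The calponin family and caldesmon held the 1 called member. CALD1 encodes caldesmon, which binds actin, tropomyosin and myosin and holds back contraction. Its signals were 2631 and 2620.3 on the scramble arrays, 2038 and 2068 on those of siRNA 1, and 4663 and 4834 on those of siRNA 2. The groups did not overlap: siRNA 2 stood highest, scramble between, and siRNA 1 lowest. With siRNA 2 CALD1 rose to 181% of scramble (log2 change 0.85, SE 0.075, adjusted p = 0.0461). The siRNA 1 arrays, at 78.2% of scramble, were not called (log2 change -0.35, adjusted p = 0.147). The siRNAs differed by -1.21 on the log2 scale (adjusted p = 0.0467). Both calls were close to the threshold and depended on having all arrays. Left out 1 at a time, each of the 6 arrays ended both calls: without siRNA 2 A the adjusted p was 0.190 and 0.196, the highest of the 6, and the lowest were 0.113 and 0.130. The log2 values hardly moved, from 0.83 to 0.88 and from -1.23 to -1.18. Over all other settings the adjusted p ran from 0.000163 to 0.560 with siRNA 2 and from 2.27e-05 to 0.343 between the siRNAs.

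The other bright probe sets of CALD1 pointed the same way, by less with siRNA 2. Besides the one used, 3 were above the array median on every array, and they stood between -0.80 and -0.35 with siRNA 1 and at 0.080, 0.27 and 0.56 with siRNA 2. On the first 2 of these the siRNA 2 arrays overlapped scramble. Of 3 dimmer ones, above it on 4 or 5 arrays, 2 went the other way with siRNA 2 (-0.77 and -0.33) and 1 did not (0.95). Averaged over every probe set of the gene, dim ones included, the change with siRNA 2 was 0.23 (adjusted p = 0.560) and the difference between the siRNAs -0.45 (adjusted p = 0.343), with no call.

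TAGLN encodes transgelin (SM22), an actin-bundling protein of the calponin family and a standard SRF target. It read 1159 and 1269 on the scramble arrays, 556 and 634 on those of siRNA 1, and 1347 and 1511 on those of siRNA 2. The siRNA 1 arrays were at about 49.0% of scramble, below it without overlap, and the siRNA 2 arrays were above it. The log2 changes were -1.03 (adjusted p = 0.0633) and 0.23 (adjusted p = 0.344), and the siRNAs differed by -1.26 (adjusted p = 0.0575, 95% interval -1.57 to -0.96). None of these passed the threshold. With an intensity trend in the variance the siRNA 1 change and the difference were called (adjusted p = 0.000640 and 0.000229), as they were when only genes above the median on all arrays were tested (adjusted p = 0.0175 and 0.0143). The ranges over all other settings were 0.000640 to 0.802 and 0.000229 to 0.800.

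TAGLN's probe sets disagreed. The next brightest read 913 and 1101 on the scramble arrays, 538 and 525 on those of siRNA 1, and 1291 and 1473 on those of siRNA 2, much like the first. The dimmest of those above the median on every array read 163 and 219, 153 and 195, and 151 and 168 in the same order, with groups that overlapped and a difference between the siRNAs of 0.12. Both brighter ones are of the type that can also bind related transcripts.

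TAGLN, CALD1 and MYL9 were the 3 members whose siRNA 1 arrays lay below and siRNA 2 arrays above both scramble arrays (10.3% of members, against 3.16% of all genes). The reverse order was seen in 0 members and in 3.33% of all genes. Only for CALD1 was the difference between the siRNAs called.

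**Figure D3:**
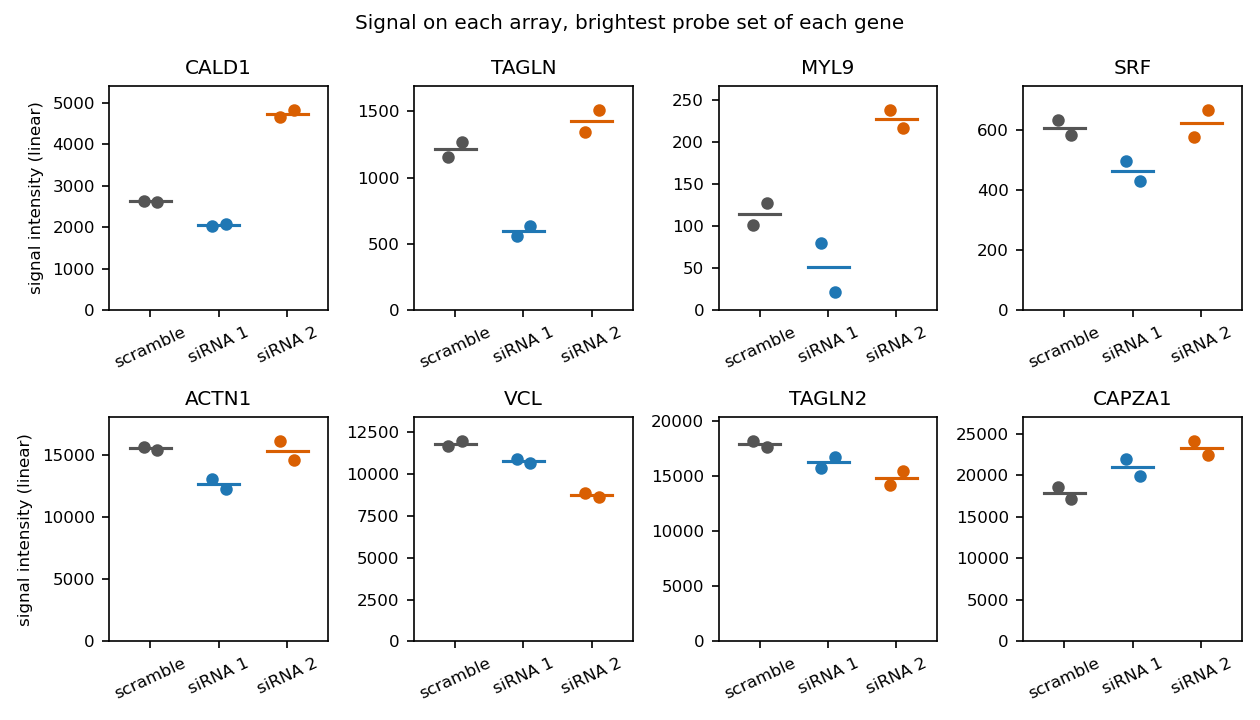
Linear signal on each array (points) and group mean (line) for 8 members, with the y axis from 0. CALD1, TAGLN and MYL9 stand lowest with siRNA 1 and highest with siRNA 2, VCL and TAGLN2 are lower on all 4 knockdown arrays and CAPZA1 is higher on all 4.

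TAGLN2, CNN2 and CNN3, the relatives of TAGLN in the set, did not have its order of groups without overlap. The differences between genes were not tested. TAGLN2, the broadly expressed transgelin, read 18118 and 17582 on the scramble arrays, 15755 and 16721 on those of siRNA 1, and 14204 and 15454 on those of siRNA 2. All knockdown arrays were lower, by -0.14 and -0.27 (adjusted p = 0.516 and 0.193). CNN3, an acidic calponin, read 78.1 and 81.5, 59.2 and 99.8, and 119 and 86.6 in the same order, with siRNA 1 arrays on either side of scramble and siRNA 2 arrays above it. Its changes of -0.054 and 0.34 were not called (adjusted p = 0.949 and 0.569). CNN2, a calponin of non-muscle cells with the box shown above, stood at -0.073 and 0.016.

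At focal adhesions, vinculin (VCL) links talin and alpha-actinin to filaments. Its signals were 11659.7 and 11923 on the scramble arrays, 10875 and 10649 on those of siRNA 1, and 8856 and 8637 on those of siRNA 2, in 3 groups that did not overlap. The log2 change was -0.13 with siRNA 1 (adjusted p = 0.466) and -0.43 with siRNA 2 (adjusted p = 0.0791, 95% interval -0.63 to -0.24), or 74.2% of scramble. This missed the adjusted threshold and the 1.5-fold limit. The siRNAs differed by 0.30 (adjusted p = 0.158).

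Talin (TLN1), which couples integrins to actin, read 287 and 209.8 on the scramble arrays, 171 and 162 on those of siRNA 1, and 248 and 199 on those of siRNA 2. The siRNA 1 arrays were lowest, and the siRNA 2 arrays overlapped scramble. Changes were -0.56 (adjusted p = 0.280) and -0.14 (adjusted p = 0.731). Alpha-actinin 1 (ACTN1), a crosslinker with a box in 1 of its 4 promoter windows, read 15673 and 15461 on the scramble arrays, 13131 and 12307 on those of siRNA 1, and 16122 and 14667 on those of siRNA 2. Both siRNA 1 arrays were below all others, at 81.7% of scramble (log2 change -0.29, adjusted p = 0.241), and siRNA 2 overlapped scramble (log2 change -0.018). All 3 bright probe sets of ACTN1 stood below 0 with both siRNAs, from -0.60 to -0.29 and from -0.43 to -0.018. On the other two both siRNA 2 arrays lay below both scramble arrays. Zyxin (ZYX) and ACTN4, the second non-muscle alpha-actinin, stood at 0.098 and 0.10 with siRNA 1 and at -0.056 and -0.11 with siRNA 2.

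Ezrin (EZR) and radixin (RDX), which tie filaments to the plasma membrane, stood at -0.19 and -0.21 with siRNA 1 and at -0.055 and -0.16 with siRNA 2. The 3 bright probe sets of RDX were lower with both siRNAs, from -0.35 to -0.21 and from -0.64 to -0.16. The 5 of EZR were all lower with siRNA 1 and split 3 lower to 2 higher with siRNA 2.

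SRF itself read 633 and 585 on the scramble arrays, 496 and 431 on those of siRNA 1, and 578 and 668 on those of siRNA 2. The siRNA 1 arrays were lowest without overlap, and the siRNA 2 arrays overlapped scramble. The log2 change was -0.39 with siRNA 1 (adjusted p = 0.246, 95% interval -0.72 to -0.068) and 0.030 with siRNA 2 (adjusted p = 0.917), and the siRNAs differed by -0.43 (adjusted p = 0.192). None was called.

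**Figure D4:**
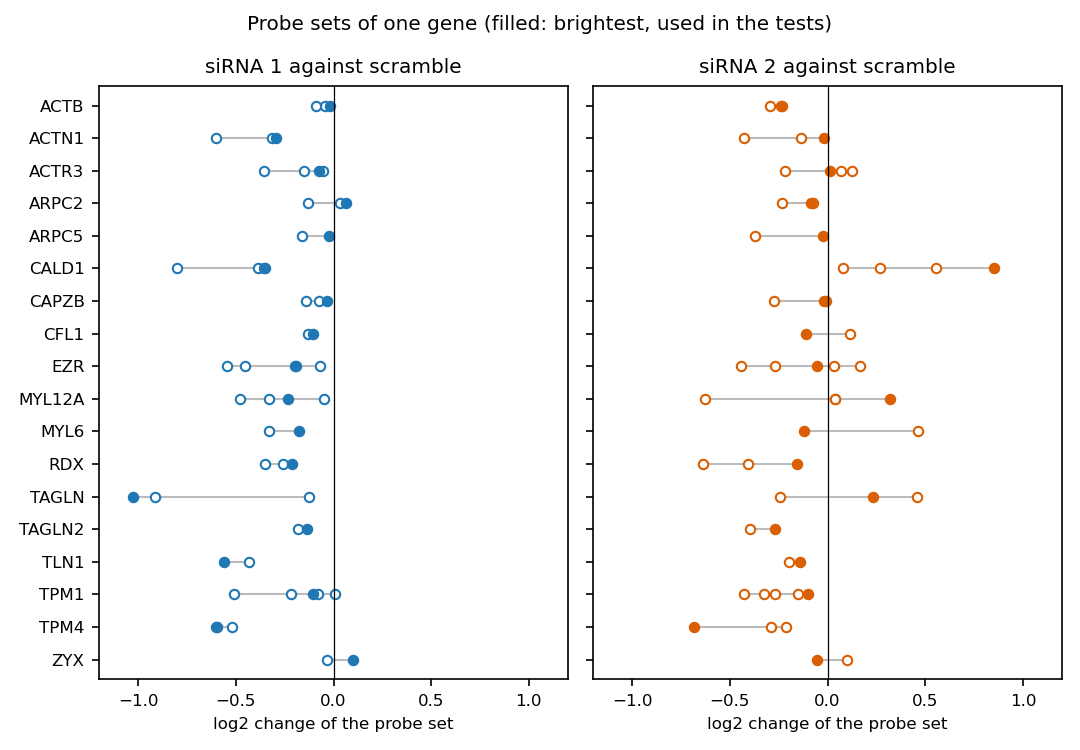
Log2 change against scramble (x axis) of every probe set above the array median on all arrays, for the 18 members with at least 2 such probe sets, with siRNA 1 on the left and siRNA 2 on the right. Filled points are the brightest probe set. CALD1 lies to the left of 0 with siRNA 1 and to the right with siRNA 2 on all 4 probe sets, while TAGLN with siRNA 1 runs from -1.03 to -0.13.

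The cofactors and partners of SRF, 7 of which were tested, gave 0 calls by limma. At an unadjusted p under 0.05, 1 was higher and 2 were lower with siRNA 1 (9.55% and 6.65% of all genes), and 3 were higher and 0 lower with siRNA 2 (12.0% and 8.76%). With siRNA 2 the 7 ran from 0.10 to 0.35 (median 0.19), so 0 of 7 stood below 0, where 47.6% of all genes did. With siRNA 1, 2 of 7 stood below 0 (median 0.030), against 47.8% of all genes. MRTFB, a monomer-regulated cofactor, stood at 0.24 and 0.35 (adjusted p = 0.253 and 0.112), and FHL2, an SRF-binding LIM protein, at 0.027 and 0.21. The ternary complex factors ELK1 and ELK4, which partner SRF at immediate early genes, stood at -0.73 and -0.25 with siRNA 1 and at 0.10 and 0.34 with siRNA 2. None of the 4 was called.

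Among 24 other SRF targets tested, immediate early and cofactor-driven, 1 was called, with siRNA 2, where 0.597% of all genes were. At an unadjusted p under 0.05, 3 were higher and 7 lower with siRNA 1 (9.55% and 6.65% of all genes), and 4 were higher and 5 lower with siRNA 2 (12.0% and 8.76%). Below 0 stood 17 of 24 with siRNA 1 and 12 with siRNA 2, against 47.8% and 47.6% of all genes. MCL1, an anti-apoptotic gene with an immediate early response, read 3621 and 3611 on the scramble arrays, 5495 and 5121 on those of siRNA 1, and 6998 and 7603 on those of siRNA 2, with every knockdown array above scramble. It rose with siRNA 2 (log2 change 1.01, adjusted p = 0.0461) and stood at 0.55 with siRNA 1 (adjusted p = 0.0936). Without any 1 of the 6 arrays 0 genes were called, MCL1 included. The matricellular CCN1 and THBS1 were lower on all knockdown arrays, by -1.02 and -0.58 with siRNA 1 and by -0.40 and -0.50 with siRNA 2, with no call. So was NR4A1, a nuclear receptor of the immediate early class, by -1.02 and -1.10. NR4A1 was dim and above the array median on 4 arrays. It read 101 and 175 on the scramble arrays, 80.5 and 52.7 on those of siRNA 1, and 54.7 and 69.4 on those of siRNA 2. The smooth muscle actin ACTA2 was higher on all knockdown arrays, by 0.73 and 0.91, and TGFB1I1, an adhesion protein, stood at -0.23 and 0.85, again with no call.

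ACTG2, which encodes the smooth muscle gamma-actin, was singled out after its values were seen. Its signals were 263 and 253 on the scramble arrays, 140.0 and 146 on those of siRNA 1, and 343 and 422 on those of siRNA 2. As with CALD1, TAGLN and MYL9, the siRNA 1 arrays lay below scramble and the siRNA 2 arrays above it. The log2 changes were -0.85 (adjusted p = 0.0807) and 0.56 (adjusted p = 0.110), and the difference of -1.41 was not called (adjusted p = 0.0574). Over the 24 targets the median was -0.094 with siRNA 1 and 0.012 with siRNA 2.

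Neighbouring gene groups gave 0 calls by limma in any of the 3 comparisons. Of 14 other genes listed with the Arp2/3 and WAVE complexes 9 were above 0 with siRNA 1 and 5 with siRNA 2 (medians 0.023 and -0.037). That list also holds CTTN and WASL, which are subunits of neither complex. At an unadjusted p under 0.05, 1 was higher and 0 were lower with siRNA 1 (9.55% and 6.65% of all genes). With siRNA 2, 0 were higher and 2 were lower, CTTN and ARPC1A (12.0% and 8.76% of all genes). Cortactin (CTTN), which stabilises branches, stood at -0.21 and -0.39 (adjusted p = 0.379 and 0.125). The Arp2/3 subunit ARPC1A stood at 0.22 and -0.34, WASF3 at 0.48 and -0.21, and CYFIP2, both of the WAVE complex, at -0.57 and 0.43.

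Of 32 other actin-binding and adhesion genes 14 were above 0 with siRNA 1 and 15 with siRNA 2 (medians -0.018 and -0.031). At an unadjusted p under 0.05, 5 were higher and 4 lower with siRNA 1 (9.55% and 6.65% of all genes), and 3 were higher and 6 lower with siRNA 2 (12.0% and 8.76%). Coronin 1C (CORO1C), which remodels branched filaments, read 4095 and 4105 on the scramble arrays, 2821 and 3013 on those of siRNA 1, and 2256 and 2509 on those of siRNA 2. Its log2 changes of -0.49 and -0.79 were the lowest of the 32 genes and were not called (adjusted p = 0.126 and 0.0556). Parvin alpha (PARVA), an adhesion scaffold, had the highest changes of the 32, 0.80 and 0.86 (adjusted p = 0.124 and 0.0799). Kindlin 2 (FERMT2) stood at -0.17 and -0.51, the bundler PLS1 at -0.36 and -0.34, its relative PLS3 at 0.30 and 0.27, and focal adhesion kinase (PTK2) at 0.30 and 0.31. None of these passed the threshold.

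**Figure D5:**
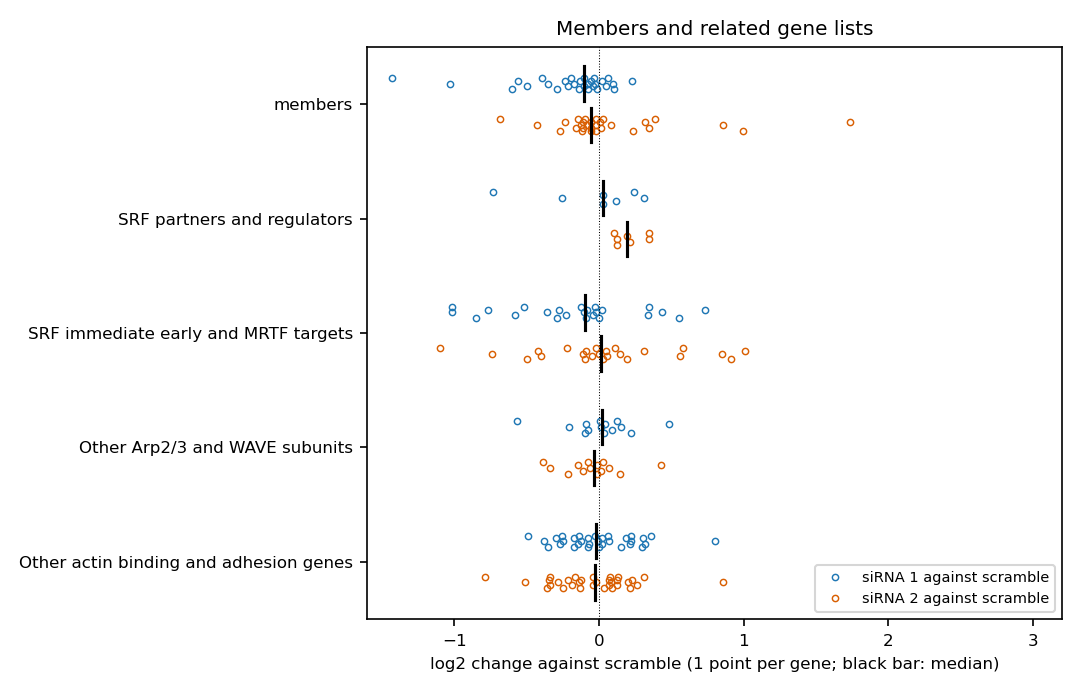
Log2 change against scramble (x axis) of each tested gene (1 point) in the 29 members and 4 related lists, for siRNA 1 (blue) and siRNA 2 (orange), with the median as a black bar. The medians of all lists lie between -0.11 and 0.19.

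Of the 8 epithelial markers 0 were called by limma in any comparison. With siRNA 2, 6 of 8 stood below 0 (median -0.21), and 4 were lower at an unadjusted p under 0.05 (8.76% of all genes). With siRNA 1, 4 of 8 stood below 0 (median 0.0094) and 0 were lower at that p. Keratin 8 (KRT8) and E-cadherin (CDH1), singled out after their values were seen, were the lowest with siRNA 2, at -0.62 and -0.49 (adjusted p = 0.0558 and 0.0751), against -0.095 and 0.16 with siRNA 1. EPCAM, an epithelial adhesion molecule, and the receptor FGFR3 stood above 0 with siRNA 2, at 0.089 and 0.17. These values stand beside the higher CALD1 of siRNA 2, and their part in it was not tested.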

How the data were processed

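RNA of the 6 samples was hybridised to 1-colour Affymetrix arrays. The deposited table holds 1 signal intensity, on a linear scale, for each of 54675 probe sets and each array. Per the submitters' processing notes the authors used Affymetrix Expression Console. Neither its algorithm nor its version is given in the sources used here. The mean after trimming 2% from each tail was 500.067 to 500.07 on every array, and medians were 69.3 to 76.2.

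Groups came from the sample titles; 1 siRNA 1 title spells the target differently and was assigned by its siRNA number. Each gene was read on its brightest single-symbol probe set (mean of log2(signal + 1), control probe sets left out) and tested where that was above the array median on at least 2 arrays. Of 29 tested members 18 were read on probe sets that can bind related transcripts. limma 3.58.1 (R 4.3.3) was fitted to all 6 arrays with the group as the only term, with 3 residual and 1.72 prior degrees of freedom and Benjamini-Hochberg adjustment over 12735 genes, and was tested on simulated data. Intervals are unadjusted 95% intervals per gene. Duplicates correlated at 0.979 to 0.980, and arrays of the same letter in different groups did not deviate together (correlations -0.03 to 0.04), so the letters were not taken as pairs. Precision is limited by having 2 arrays a group.

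The members, gene lists and rules were chosen with earlier results of these data known. Members given array by array were those called or at an unadjusted p under 0.05 in any comparison, those with all knockdown arrays on 1 side and a 1.3-fold change, the 5 highest and 5 lowest by mean change, and ACTB, ACTG1 and SRF. Other lists name called genes and up to 3 genes in each direction with the largest mean change at an unadjusted p under 0.05. One related gene group is not reported here. Promoter sequences are from RefSeq (GRCh38.p14). Figures used matplotlib 3.10.9.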

Additional observations from a re-analysis of the deposited data

Results flagged for a closer look

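CALD1 differed between the siRNAs by the test of the difference itself (log2 -1.21, siRNA 1 minus siRNA 2, limma adjusted p = 0.0467).

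Further genes had both siRNA 1 arrays on 1 side of the scramble arrays and both siRNA 2 arrays on the other, while the contrast between the siRNAs, fitted over all genes, did not call them. Among members the differences were -1.26 for TAGLN (adjusted p = 0.0575) and -2.42 for MYL9 (adjusted p = 0.162). In the 4 related lists, 6 of 77 tested genes had siRNA 1 below and siRNA 2 above scramble: ACTG2 (-1.41, adjusted p = 0.0574), ELK1 (-0.83, adjusted p = 0.0912), ELK4 (-0.60, adjusted p = 0.0783), CSRP1 (-0.57, adjusted p = 0.0969), CFL2 (-0.20, adjusted p = 0.331) and AMOTL2 (-0.13, adjusted p = 0.429). In the other direction stood 5 of 77: WASF3 (0.70, adjusted p = 0.0902), VASP (0.56, adjusted p = 0.135), ARPC1A (0.56, adjusted p = 0.0953), LASP1 (0.34, adjusted p = 0.166) and LIMA1 (0.27, adjusted p = 0.239). Among the cell type markers CDH1 (0.65, adjusted p = 0.0706) and LUM (0.39, adjusted p = 0.169) had that order too. Over all genes tested 3.16% had the first order and 3.33% the second.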

How the results depend on the processing

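Every call in this set rests on 2 arrays a group and on the processing. With siRNA 1, 0 members were called as reported, and 1 (TAGLN) with an intensity trend or when only genes above the median on all arrays were tested. With siRNA 2 the 1 called member, CALD1, was lost with arrays centred on their medians, with the replicate block and with no filter. It was also lost with probe sets averaged per gene and with probe sets not of the s, x or a type. That last setting reads CALD1 on the same probe set, and 0 of 9845 genes were called there with siRNA 2. Between the siRNAs the same 5 settings gave 0, the intensity trend 3 (CALD1, MYL9 and TAGLN) and the stricter filter 2 (CALD1 and TAGLN). Without any 1 of the 6 arrays 0 members were called in each comparison (lowest 0, highest 0). With the replicate block, 0 genes of all tested were called in any comparison. No source used here states that the letters pair the samples. The added setting, brightest probe set by mean linear signal, was chosen after seeing the data and changed no call of a member.

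The members' median with siRNA 1 moved from -0.11 to -0.062 with the mean of probe sets and to -0.21 with probe sets not of the s, x or a type. With siRNA 2 it moved from -0.054 to 0.016 with the mean of probe sets and to -0.0059 with quantile normalization, and leaving out 1 array gave -0.075 (without scramble B) to -0.0038 (without scramble A). Between the siRNAs, leaving out 1 array gave medians from -0.10 (without siRNA 1 B) to -0.022 (without siRNA 2 B), with -0.053 as reported.

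Over all genes tested 50, 76 and 27 were called in the 3 comparisons. The counts were 299, 472 and 362 with the intensity trend, 244, 399 and 289 with the stricter filter, 11, 1 and 0 with centring, and 11, 0 and 5 with probe sets not of the s, x or a type. Quantile normalization gave 33, 71 and 12 and a pseudocount of 16 gave 65, 162 and 30. Each was 0 with no filter, with the mean of probe sets and without any 1 array.

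No reversed value belongs to a called change. With the mean of probe sets the change turned to -0.33 for CAPZA1 with siRNA 1, to 0.13 for TPM4 with siRNA 2 and -0.55 between the siRNAs, to -0.058 for MYL12A with siRNA 2, to 0.66 and 0.43 for VCL with siRNA 1 and siRNA 2, and to 0.045 for ACTN1 with siRNA 1 and 0.27 between the siRNAs. That mean includes dim probe sets near the array median or below it. With probe sets not of the s, x or a type TAGLN turned to -0.24 with siRNA 2 and 0.12 between the siRNAs. Leaving out 1 array gave -1.70 (without scramble A) to 0.71 (without scramble B) for TPM2 with siRNA 1, -0.43 (without siRNA 1 B) to 0.32 (without siRNA 1 A) for CNN3 with siRNA 1 and -0.37 (without scramble B) to 0.082 (without scramble A) for TLN1 with siRNA 2. The causes were not tested.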
